A study of Mus musculus with 9 samples.

Results

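Tetraspanins are small proteins that cross the cell membrane 4 times, and their 31 mouse genes counted here were picked by name: 20 genes with numbered Tspan symbols, plus Cd9, Cd37, Cd53, Cd63, Cd81, Cd82, Cd151, Upk1a, Upk1b, Prph2 and Rom1. They are 31 of the 47069 genes counted in each of 9 bulk RNA libraries, and 29 of the 31 held enough counts to be tested. The libraries came from 3 primary prostate tumours, 3 proximal metastases of the epididymal fat and 3 distal metastases, which one label places in the diaphragm and another in the lung. All 3 groups shared the C57BL/6 strain, an age of about 9 to 10 months and the Ctnnb1pc(ex3)delta/+ allele. In it exon 3 of 1 Ctnnb1 copy is deleted, which stabilises beta-catenin. The labels do not spell out "pc" or name the promoter that drives the deletion, and no group without this allele was analysed here. The tumours were matched within 3 mice, but the labels do not say which libraries share a mouse.

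Tetraspanins gather integrins, immunoglobulin-family proteins, proteases and each other into membrane patches, and through them act on adhesion, trafficking and signalling. Cd9, Cd63 and Cd81 are familiar surface markers of extracellular vesicles. Upk1a and Upk1b are the tetraspanins of the uroplakin plaques that cover the bladder lining. Cd82 was described as a suppressor of metastasis in prostate cancer.

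Total counts per library ranged from 28334730 to 40408723, so that 1 CPM (counts per 1000000 counts) stood for 28.3 to 40.4 counts. CPM values below use library sizes corrected by the TMM method (trimmed mean of M values). The 3 primary libraries were unlike each other. The prostate secretory gene Pbsn measured 0.483 CPM in primary 1, 211 CPM in primary 2 and 11.8 CPM in primary 3, and no metastasis exceeded 0.887 CPM. Markers of the seminal vesicle summed to 10550 CPM in primary 3 and to at most 17.7 CPM in any metastasis. The 5 listed lung epithelial markers summed to 1.21 to 10.9 CPM in primary, 1.64 to 2.85 CPM in proximal and 1.43 to 1.67 CPM in distal libraries, where Ager gave nearly all of the sum; Sftpb and Sftpa1 held 3 or fewer counts over all 9 libraries. The 7 listed skeletal muscle markers summed to at most 13.1 CPM in primary and 3.54 CPM in proximal libraries, and to 6.82 to 905 CPM in distal ones, with distal 1 the low library. Over the 29 tested tetraspanins the median SD of log2 CPM was 0.735 in the primary, 0.183 in the proximal and 0.155 in the distal libraries, against 0.617, 0.175 and 0.163 over all 18204 tested genes. As 1 dispersion per gene was fitted for all groups, p-values against primary can be too small.

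Tspan1, Upk1a, Upk1b and Tspan33 were lower in the metastases when both sites together (the mean of their effects) were set against primary, by 33.7-fold, 18.6-fold, 18.9-fold and 6.15-fold. These 4 of 29 tested tetraspanins passed an edgeR adjusted p of 0.05, all lower, where 3.71% of all tested genes passed in either direction, 3.68% passed lower and 0.033% passed higher. The other 25 tested members had log2 fold changes between -0.73 and 0.88. Over the 29 members the median log2 fold change was -0.001, against -0.039 over all tested genes.

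**Figure D1:**
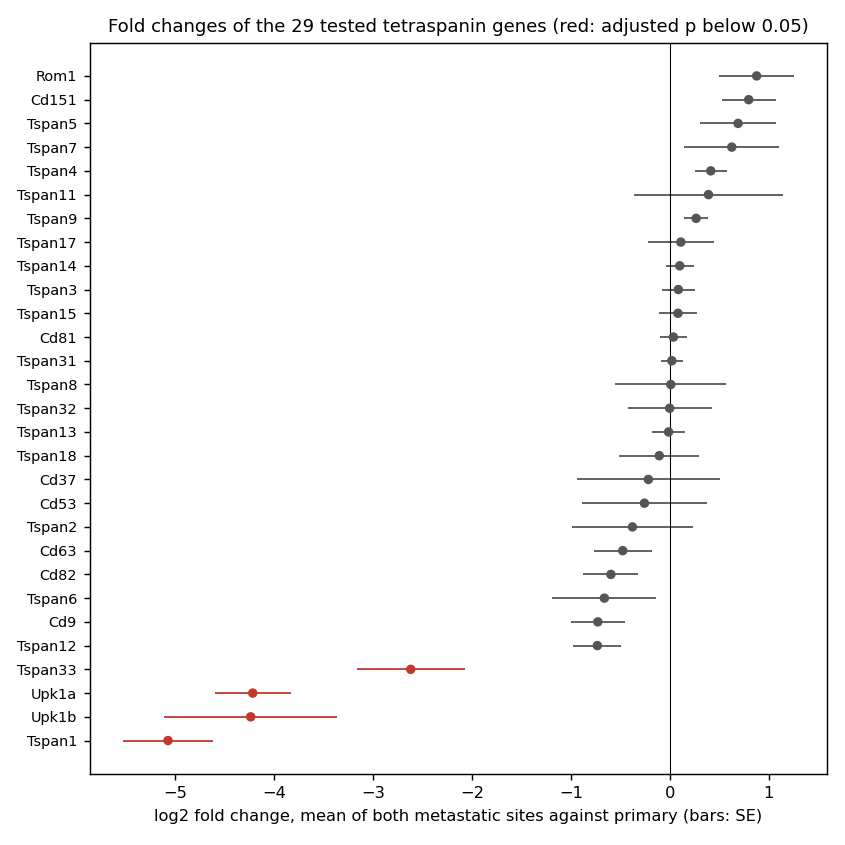
Log2 fold change (x axis, with its SE as a bar) of each of the 29 tested tetraspanin genes (y axis), with both sites together set against primary tumours. The 4 called genes, in red, lie between -5.08 and -2.62, and the other 25 lie between -0.73 and 0.88.

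With each site taken alone, fewer members passed. Against primary tumours, 1 of 29 members was called in the proximal metastases (Tspan1), where 0.0494% of all tested genes were called, and 2 of 29 in the distal ones (Tspan1 and Upk1a), where 0.0879% were. Both comparisons use the same 3 primary libraries. No member was called between the distal and proximal metastases, where 0.0% of all genes were called by edgeR and 2.06% had an unadjusted p below 0.05, with 0 of 29 members among them. DESeq2 and limma-voom with group weights called no member there either, but the share of all genes they called there is not given here.

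Tspan1, a tetraspanin of secretory and other epithelia (ENSMUSG00000028699, chromosome 4, 116161869 to 116167601 on GRCm38, minus strand), had the largest fold change of the 29. Its primary values were 123, 578 and 298 CPM. The metastases held 7.41, 5.86 and 12.3 CPM in the proximal and 12.99, 12.1 and 9.19 CPM in the distal libraries. Every primary library thus lay above every metastasis, the nearest being primary 1. The log2 fold change was -5.29 in proximal (SE 0.61, edgeR adjusted p = 0.0455), -4.86 in distal (SE 0.60, adjusted p = 0.0466) and -5.08 for both sites (SE 0.45, adjusted p = 0.0058). The call for both sites held without each of the 9 libraries in turn (adjusted p at most 0.0479), with a log2 fold change of -4.42 without primary 2. The calls for the single sites held without primary 1 or primary 2 and were lost without each of the other 7 libraries (adjusted p up to 0.406 in proximal and 0.397 in distal) and with the compared groups alone (0.281 and 0.152). Per kb of exonic length Tspan1 was number 3 of the 31 genes in primary tumours, at 143 ± 98.6 CPM per kb (SD, n = 3), and number 20 in both metastatic groups, at 3.66 ± 1.44 and 4.91 ± 0.855 CPM per kb.

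Upk1a (ENSMUSG00000006313, chromosome 7, 30603092 to 30612847, minus strand), which pairs with Upk2 in uroplakin plaques, was low in all groups and lower in the metastases. It stood at 4.59, 2.11 and 5.49 CPM in the primary, 0.287, 0.306 and 0.220 CPM in the proximal and 0.0999, 0.214 and 0.200 CPM in the distal libraries. The distal values rest on 4, 9 and 6 counts. The 3 primary libraries lay above all 6 metastases. The log2 fold change was -4.55 in distal (SE 0.51, edgeR adjusted p = 0.0391) and -4.22 for both sites (SE 0.38, adjusted p = 0.0058). In proximal it was -3.89 (SE 0.49, adjusted p = 0.0504), short of the threshold. It passed with median-ratio size factors, DESeq2, limma-voom with group weights and no filter (adjusted p at most 0.0477), and not with the compared groups alone (0.281). The call for both sites held without each library in turn (adjusted p at most 0.0497), whereas the distal call was lost without primary 3 or any 1 metastasis (up to 0.313) and with the compared groups alone (0.151).

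Upk1b (ENSMUSG00000049436, chromosome 16, 38773184 to 38800328, minus strand) pairs with Upk3a in the same plaques and is also made by mesothelium, the lining of body cavities. It stood at 9.41, 109 and 87.4 CPM in primary 1, 2 and 3. The proximal values were 0.730, 8.62 and 5.82 CPM and the distal ones 2.05, 1.142 and 4.66 CPM. The groups did not overlap, but primary 1 lay just above proximal 2 and far below the other primary libraries. The log2 fold change was -4.24 for both sites (SE 0.87, edgeR adjusted p = 0.0425), -3.76 in proximal (SE 1.12, adjusted p = 0.180) and -4.72 in distal (SE 1.18, adjusted p = 0.145). The call for both sites was lost without each library other than primary 1 (adjusted p 0.0810 to 0.148) and with limma-voom with group weights (0.297).

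Tspan33 (ENSMUSG00000001763, chromosome 6, 29694222 to 29718559, plus strand) is known from erythroid cells and activated B cells and belongs to the tetraspanins that bind the protease ADAM10. It stood at 5.07, 17.98 and 22.3 CPM in the primary, 1.51, 1.84 and 1.93 CPM in the proximal and 1.77, 1.88 and 6.63 CPM in the distal libraries. Distal 3 overlapped the primary range, lying above primary 1, and the other 5 metastases lay below it. The log2 fold change was -2.62 for both sites (SE 0.55, edgeR adjusted p = 0.0431), -3.10 in proximal (SE 0.71, adjusted p = 0.137) and -2.14 in distal (SE 0.68, adjusted p = 0.199), where it was -3.03 without distal 3. The call for both sites was lost without each library other than primary 1 (0.0579 to 0.181) and with limma-voom with group weights (0.320). Distal 3 was also the library richest in red cell transcripts, with 570 CPM of Alas2, an enzyme of haem synthesis, against 180 CPM in distal 2 and at most 58.4 CPM elsewhere; their part in the Tspan33 value was not tested.

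**Figure D2:**
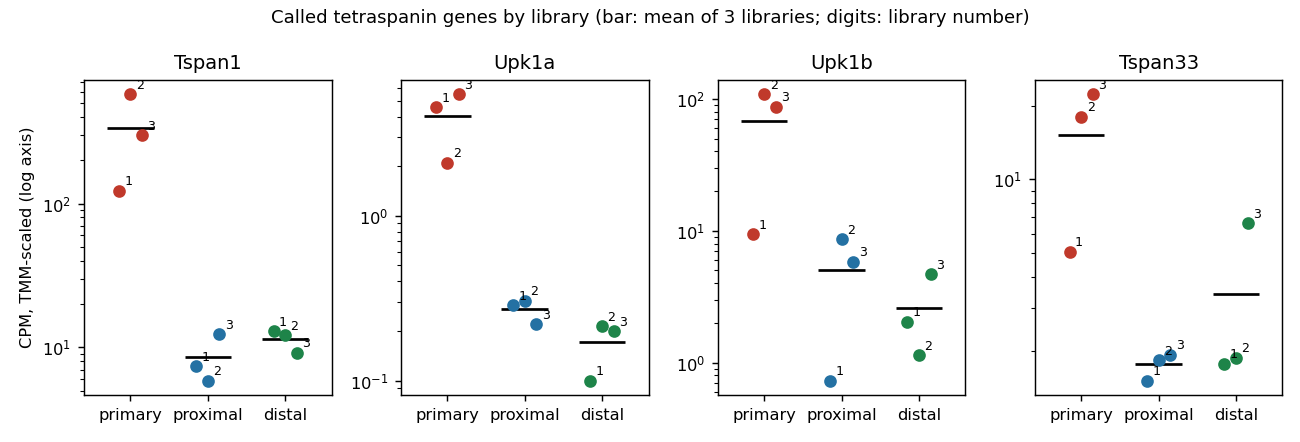
CPM on a log axis for each library of the 4 called genes, in primary tumours, proximal and distal metastases, with a bar at the mean of 3 libraries and the library number beside each point. Primary 1 is the lowest primary library for Tspan1, Upk1b and Tspan33, and for Upk1a it is primary 2, at 2.11 CPM.

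In bulk RNA, fewer cells of a type and less RNA per cell cannot be told apart. The 4 genes moved with epithelial markers: of the 6 listed, Krt5, Krt14, Trp63 and Esrp1 were called lower for both sites, and the list summed to 695 to 3102 CPM in primary, 382 to 661 CPM in proximal and 507 to 552 CPM in distal libraries. Epcam, a general epithelial marker, was not called and stood at 353, 226 and 380 CPM in primary and 163 to 310 CPM in metastatic libraries. None of the 7 listed urothelial markers was called, and their sum was 413 to 782 CPM in primary, 468 to 492 CPM in proximal and 413 to 523 CPM in distal libraries. That sum joins markers that went in opposite directions. For both sites the log2 fold change was -4.075 for Krt20, -2.545 for Psca, -1.399 for Gata3 and -0.044 for Ppl. It was 0.63 for Upk2, 0.433 for Upk3a and 0.291 for Grhl3. The part of cell composition in the values of the 4 genes was not tested.

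The promoters of the called genes other than Upk1b are shown because these members were lower together. Each sequence runs 5′ to 3′ on the gene's strand and is taken from the 250 bases before the RefSeq start (GRCm38.p6). It was cut where the gene begins in GENCODE M21, which left 247 bases for Tspan1, 137 for Upk1a and 250 for Tspan33. Tspan1 lies at chr4:116167602-116167848, minus strand, Upk1a at chr7:30612848-30612984, minus strand, and Tspan33 at chr6:29693964-29694213, plus strand. Capitals mark matches to GGGCGG (GC box) in Tspan1 and Tspan33 and to GGGNGTGG (a motif of Kruppel-like factors) on the other strand in Upk1a.
Tspan1: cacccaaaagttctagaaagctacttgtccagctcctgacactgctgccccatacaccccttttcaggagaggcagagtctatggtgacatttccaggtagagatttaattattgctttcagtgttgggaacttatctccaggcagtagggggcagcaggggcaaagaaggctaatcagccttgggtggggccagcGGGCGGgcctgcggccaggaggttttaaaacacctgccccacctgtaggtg
Upk1a: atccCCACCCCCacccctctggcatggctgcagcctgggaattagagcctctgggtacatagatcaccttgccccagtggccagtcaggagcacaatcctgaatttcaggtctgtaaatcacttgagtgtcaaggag
Tspan33: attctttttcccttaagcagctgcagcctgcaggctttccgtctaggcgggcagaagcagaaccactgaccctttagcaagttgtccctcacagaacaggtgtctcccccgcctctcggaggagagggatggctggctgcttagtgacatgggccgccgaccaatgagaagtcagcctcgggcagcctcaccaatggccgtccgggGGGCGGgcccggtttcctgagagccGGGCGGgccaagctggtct

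Searched on both strands in the 250 bases before each start, GGGCGG was held by 15 of the 29 members with a promoter sequence and by 32.7% of all 32851 promoters, and GGGNGTGG by 9 of 29 and 15.9%. The TCF/LEF motif CTTTGAT, which beta-catenin's DNA-binding partners recognise, was in 0 of 29 members and 3.21% of promoters. The AP-1 motif TGANTCA was in 1 of 29 members and 6.75% of promoters. The motif of grainyhead-like factors, AACCNGTT, was in 2 of 29 and 1.79%. The letters TATAAA, a common core promoter element, were in 1 of 29 and 12.4%. Member counts are per gene, whereas the shares of all promoters are per promoter, so the 2 are not fully alike. These 29 members are not the 29 tested ones, as Upk1b was tested but had no promoter sequence. No motif contains another, and matches to different motifs may overlap. A match is a description of letters, not of binding.

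None of the 4 listed partners of the 2 uroplakins (Upk2, Upk3a, Upk3b and Upk3bl) was called in any comparison. Upk3a, a single-pass uroplakin, stood at 168, 27.96 and 276 CPM in primary 1, 2 and 3, and between 164 and 257 CPM in the 6 metastases. Its log2 fold change for both sites was 0.43 (SE 0.57, edgeR adjusted p = 0.610), and -0.07 without primary 2. Upk2 stood at 3.33, 1.95 and 8.07 CPM in the primary and 4.12 to 9.24 CPM in the metastatic libraries (log2 fold change 0.63, SE 0.48, adjusted p = 0.386). Per kb of exonic length, Upk2 was 0.952, 1.22 and 1.93 times Upk1a in primary 1, 2 and 3, and 18.9 to 70.9 times in the metastases. By the same measure Upk3a was 34.1, 0.490 and 6.05 times Upk1b in the primary libraries, and 36.3 to 583 times in the metastases. The Upk2 to Upk1a ranges did not overlap between primary tumours and metastases, and the Upk3a to Upk1b ranges came close only through primary 1. These ratios reuse the Upk1a and Upk1b values above and are not separate results. In the metastases the Upk1a values rest on 4 to 12 counts per library.

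Among the metastases, Upk1b took the same order of libraries as 2 of the 7 listed mesothelial genes. This ordering was noticed after the values were seen. From lowest to highest, the order was proximal 1, distal 2, distal 1, distal 3, proximal 3 and proximal 2 for Upk1b, for Upk3b and for Lrrn4. Upk3b ranged over these libraries from 0.704 to 23.7 CPM and Lrrn4 from 0.235 to 6.32 CPM. In the primary tumours the order differed: primary 2 and 3, at 109 and 87.4 CPM of Upk1b, held 0.429 and 2.75 CPM of Upk3b, and primary 1, at 9.41 CPM of Upk1b, held 13.8 CPM. All other listed mesothelial markers (Msln, Wt1, Gpm6a, Bnc1 and Krt19) had other orders. Wt1 differed from Upk1b only by a swap of proximal 1 and distal 2, and Msln only by a swap of distal 3 and proximal 3. Gpm6a, Bnc1 and Krt19 differed by more. For Krt19, proximal 2, the highest metastasis for Upk1b, was next to lowest. The part of mesothelium in the Upk1b values of the metastases was not tested.

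**Figure D3:**
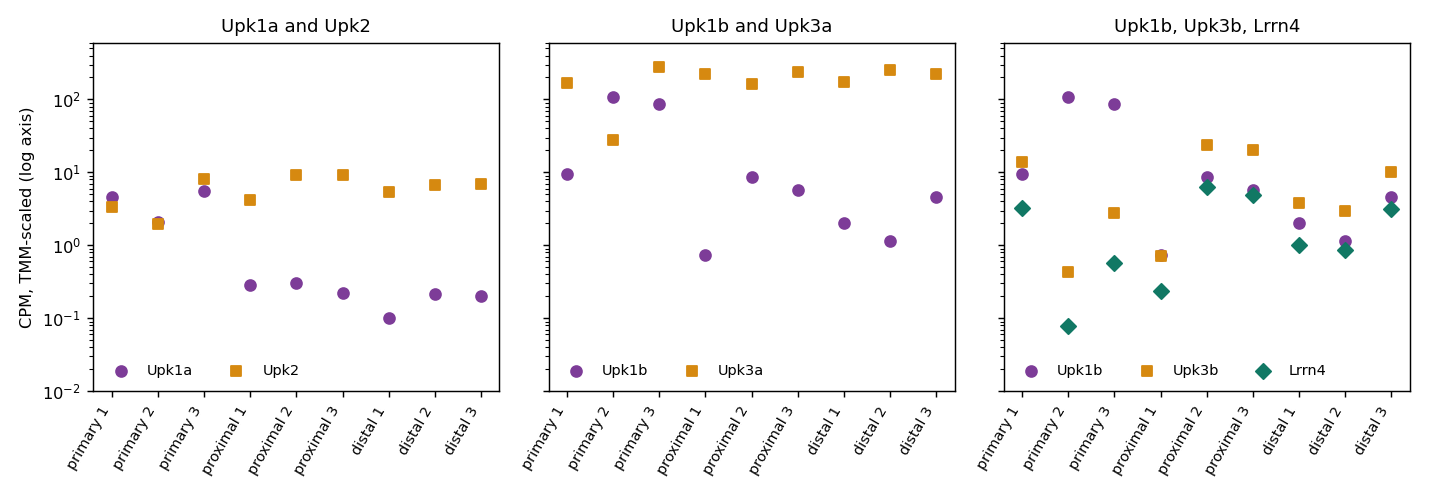
CPM on a log axis in each of the 9 libraries for Upk1a with Upk2 (left), Upk1b with Upk3a (middle), and Upk1b with Upk3b and Lrrn4 (right). Upk3b and Lrrn4 are the 2 of 7 listed mesothelial genes that shared the Upk1b order among the metastases. Upk1a drops below 0.31 CPM in the 6 metastases while Upk2 stays between 4.12 and 9.24 CPM, and Upk3a stays between 164 and 257 CPM while Upk1b lies at or below 8.62 CPM.

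None of the 5 classical surface tetraspanins (Cd9, Cd63, Cd81, Cd82 and Cd151) was called in any comparison. Together Cd9, Cd63, Cd81 and Cd151 held 38.1% to 46.3% of the summed CPM of the 31 genes in primary tumours and 48.4% to 51.0% in metastases. Per kb of exonic length, Cd9 was first in primary tumours at 217 ± 110 CPM per kb (SD, n = 3), ahead of Cd81 (151 ± 18.8) and Tspan1, whose ranges overlapped. In both metastatic groups Cd151 was first (184 ± 11.1 in proximal and 181 ± 3.28 in distal), Cd81 second (150 ± 3.28 and 160 ± 14.2) and Cd9 next (number 3, 130 ± 16.2 and 131 ± 4.57). The 3 genes did not overlap in either metastatic group, and the mean of the next gene was 59.0 CPM per kb in proximal and 53.6 CPM per kb in distal.

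Cd151, which binds laminin-binding integrins, was the classical member whose groups separated. It stood at 453, 209 and 199 CPM in primary 1, 2 and 3, 499.7, 474 and 535 CPM in the proximal and 505, 487 and 494 CPM in the distal libraries. All 6 metastases lay above all primary libraries, primary 1 closest. The log2 fold change was 0.80 for both sites (SE 0.27, edgeR adjusted p = 0.142, 95% interval 0.17 to 1.43), not past the threshold. DESeq2 called it (adjusted p = 0.0313), as did edgeR without primary 1 (log2 fold change 1.31, adjusted p = 0.000501).

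Cd9, a partner of integrins and of the sperm-egg fusion machinery, stood at 253, 690 and 384 CPM in primary 1, 2 and 3 and at 231 to 296 CPM in the metastases. Primary 1 lay within the metastatic range and the other primary libraries above it (log2 fold change -0.73, SE 0.28, edgeR adjusted p = 0.168). Cd82 showed the same arrangement at lower levels, with 121, 313 and 162 CPM in primary and 113 to 152 CPM in metastatic libraries (-0.60, SE 0.28, adjusted p = 0.221, 95% interval -1.23 to 0.04). Cd63, a tetraspanin of late endosomes, stood at 189, 447 and 177 CPM in primary and 167 to 221 CPM in metastatic libraries. Only primary 2 stood apart for Cd63, and its log2 fold change of -0.48 for both sites (SE 0.29, adjusted p = 0.306) was 0.09 without that library.

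Cd81, part of the B cell coreceptor and widely expressed, was among the steadiest members. It stood at 396, 497 and 413 CPM in the primary, 422, 435 and 441 CPM in the proximal and 491, 414 and 477 CPM in the distal libraries, and the groups overlapped. Its log2 fold change for both sites was 0.04 with a 95% interval of -0.27 to 0.34 (edgeR adjusted p = 0.864). Tspan3, a broadly expressed tetraspanin, stood at 207, 130 and 195 CPM in primary and 168 to 212 CPM in metastatic libraries, low in primary 2 alone. Its log2 fold change for both sites was 0.09 (95% interval -0.30 to 0.47, adjusted p = 0.736), and -0.10 without primary 2. Tspan31 (0.02, interval -0.24 to 0.28) was as steady. Exons of Tspan31 overlap those of Cdk4 on the other strand, and exons of Cd81 overlap those of R74862 on the other strand. The strand setting of the counting is not given in the sources used here.

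**Figure D4:**
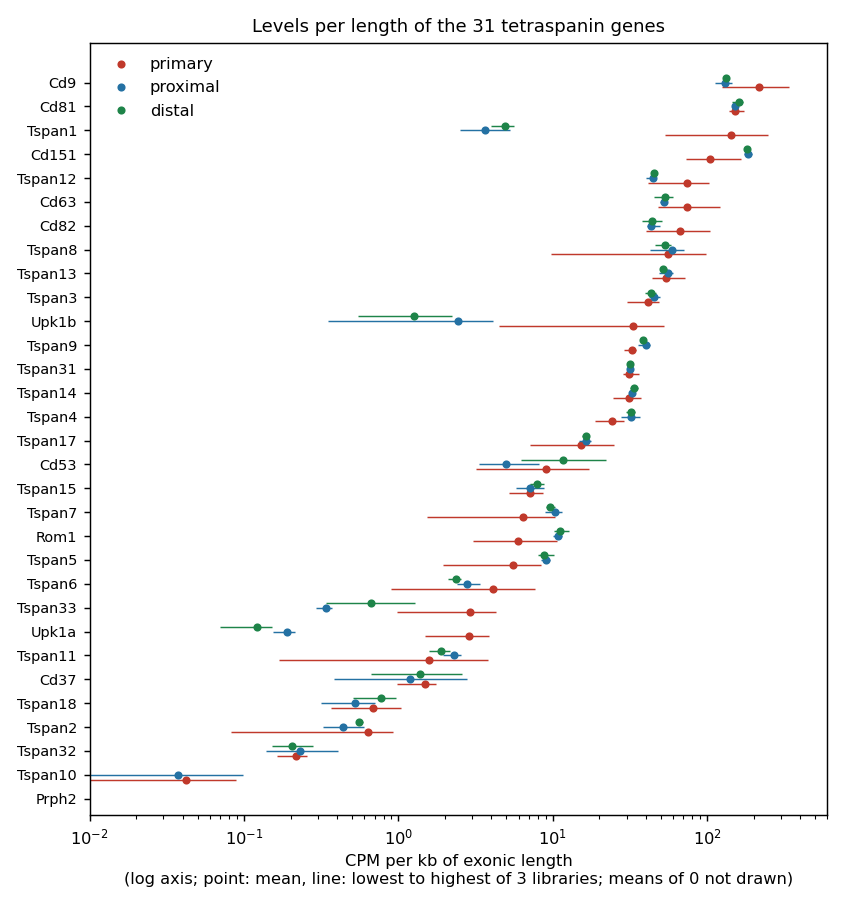
Level per kb of exonic length (x axis, log scale) of the 31 tetraspanin genes (y axis) in primary tumours, proximal and distal metastases, as the mean of 3 libraries with a line from the lowest to the highest. Tspan1, Upk1b, Tspan33 and Upk1a are the genes whose metastatic means lie far left of the primary mean, and Cd151, Cd81 and Cd9 lead in both metastatic groups.

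Of the 6 tetraspanins that bind ADAM10, 5 were tested and Tspan33 alone was called. Tspan5 stood at 61.9, 14.4 and 45.9 CPM in primary 1, 2 and 3 and at 59.5 to 75.0 CPM in the metastases (log2 fold change 0.69, SE 0.39, edgeR adjusted p = 0.277). Tspan14, Tspan15 and Tspan17 had log2 fold changes for both sites of 0.10, 0.08 and 0.11 (SE 0.14, 0.20 and 0.33). Tspan10 held 16 counts over all 9 libraries and was not tested. Adam10 itself, the sheddase these proteins carry to the surface, stood at 910, 249 and 522 CPM in primary and 926 to 1106 CPM in metastatic libraries (0.85, SE 0.36, adjusted p = 0.196). Each metastasis lay above each primary library for Adam10, with primary 1 next to the metastatic range.

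Tspan12 assists Norrin signalling through the receptor frizzled 4 to beta-catenin, the protein stabilised in this model. It stood at 137, 338 and 264 CPM in primary 1, 2 and 3, 155, 153 and 134 CPM in the proximal and 153, 142 and 152 CPM in the distal libraries. Primary 1 lay within the metastatic range and the other 2 primary libraries above it (log2 fold change for both sites -0.73, SE 0.24, edgeR adjusted p = 0.132). Fzd4 stood at 9.25, 15.9 and 11.7 CPM in primary and 4.67 to 8.66 CPM in metastatic libraries (-0.85, SE 0.28, adjusted p = 0.126), again not past the threshold. Ndp, which encodes Norrin, did not exceed 0.468 CPM in any library.

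The leukocyte tetraspanins Cd37 and Cd53 varied within every group and were not called. Cd53 stood at 12.1, 5.50 and 29.8 CPM in the primary, 5.82, 14.2 and 6.02 CPM in the proximal and 10.9, 11.4 and 38.4 CPM in the distal libraries. Ptprc, the pan-leukocyte gene CD45, led in the same 3 libraries that led their groups for Cd53, at 34.5 CPM in primary 3 and 26.99 CPM in proximal 2, and highest of its group in distal 3 as well. Cd37, mostly a B cell tetraspanin, was highest in proximal 2 at 9.76 CPM, as was the B cell gene Cd79a at 11.4 CPM. The 95% interval of the log2 fold change for both sites was -1.89 to 1.45 for Cd37 and -1.70 to 1.19 for Cd53, wide enough to hold changes in either direction. Tspan32, a lymphoid tetraspanin, stood between 0.861 and 2.52 CPM in all 9 libraries.

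Of the 3 tetraspanins known from the eye, Prph2, a structural protein of photoreceptor discs, had 0 counts in each library (a count of 0 allows up to 3 counts), and Tspan10 was near 0. Rom1, the partner of Prph2 in photoreceptors, was nonetheless present. It stood at 16.1, 4.60 and 6.51 CPM in primary 1, 2 and 3 and at 15.3 to 19.4 CPM in the metastases, with primary 1 among the latter (log2 fold change 0.88, SE 0.38, edgeR adjusted p = 0.200). Photoreceptor markers summed to between 1.80 and 3.35 CPM in any library.

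Among the epithelial tetraspanins, Tspan8 and Tspan13 were not called. Tspan8 stood at 102, 16.5 and 167 CPM in primary 1, 2 and 3 and at 72.5 to 121 CPM in the metastases, with primary 2 far below all others (log2 fold change 0.01, 95% interval -1.28 to 1.30). Tspan13 stood at 117, 176 and 109 CPM in primary and 121 to 149 CPM in metastatic libraries (-0.01, interval -0.41 to 0.38). The other 9 numbered genes (Tspan2, 3, 4, 6, 7, 9, 11, 18 and 31) had log2 fold changes between -0.66 and 0.63, and none was called (lowest edgeR adjusted p = 0.178). Tspan11 and Tspan7 were lowest in primary 2, at 0.897 and 10.9 CPM, against 8.43 to 13.5 and 63.1 to 81.0 CPM in the metastases.

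The single primary libraries differed in how they compared with the metastases. Primary 1 lay within the range of the 6 metastases for 15 of the 29 tested tetraspanins, against 70.8% of all tested genes. Primary 2 lay within it for 3 of 29 (20.7% of all genes) and primary 3 for 7 of 29 (29.5%). Primary 2 was the highest or lowest of the 9 libraries for 21 of 29 members, against 66.0% of all genes. Without primary 1, edgeR called 11 of 29 members for both sites, 7 lower (Tspan1, Upk1a, Upk1b, Tspan33, Cd9, Cd82 and Tspan12) and 4 higher (Cd151, Tspan4, Tspan11 and Rom1), where it called 34.8% of all genes. The members' groups did not overlap for 5 of 29 for both sites (Tspan1, Upk1a and Upk1b lower, Cd151 and Tspan9 higher), against 10.2% of all genes (5.99% lower and 4.22% higher). In proximal against primary it was 7 of 29, against 19.4%, in distal against primary 6 of 29, against 18.8%, and between the metastatic sites 1 of 29 (Upk1a, lower in distal), against 7.62%.

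**Figure D5:**
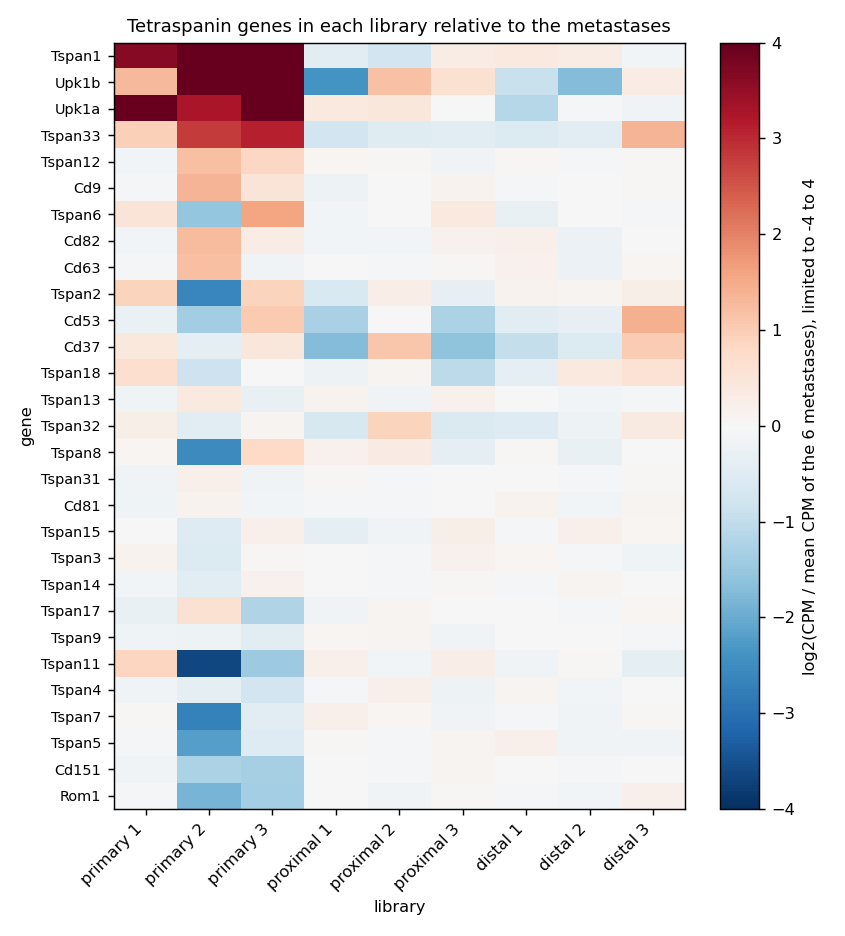
Colour gives log2 of the CPM in each library (columns) over the mean of the 6 metastases, limited to between -4 and 4, for the 29 tested tetraspanin genes (rows). The metastases are pale for most genes, primary 1 departs mainly in the top rows, and primary 2 is dark blue for genes such as Tspan11, at 0.897 CPM, and Tspan7.

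Of the genes known to work with tetraspanins, from the lists, 7 of 49 tested companions were called for both sites, all lower, against 3.71% of all tested genes. The median log2 fold change of the 49 was -0.48, against -0.039 over all tested genes. Cldn7, a claudin that binds tetraspanin-associated Epcam, was lowest in fold, falling from 150 ± 110 to 3.89 ± 1.55 CPM (SD, n = 3 and 6; log2 fold change -5.30, SE 0.50, edgeR adjusted p = 0.00669). This call held without each library in turn (at most 0.0497), with -4.58 without primary 2. Cldn7 was also the 1 companion of 49 called in distal against primary (-5.58, SE 0.68, edgeR adjusted p = 0.0466), where 0.0879% of all tested genes were called. No companion was called in proximal against primary, where 0.0494% of all genes were called, or between the metastatic sites, where 0.0% were. Rab27b, which docks vesicles for secretion, fell from 16.2 ± 11.8 to 1.06 ± 0.346 CPM (-3.93, SE 0.49, adjusted p = 0.0120) and was called in 4 of the 9 fits that leave out a library, with -3.19 without primary 3. It was the 1 of 11 vesicle genes that was called.

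Prom1, a pentaspan membrane protein of microvilli and a stem cell marker, changed by -4.07 (SE 0.73, edgeR adjusted p = 0.0296), and by -3.14 without primary 3. Met, the receptor of hepatocyte growth factor, changed by -2.63 (SE 0.51, adjusted p = 0.0364). Igsf3, from the immunoglobulin family that binds tetraspanins, changed by -2.02 (SE 0.40, adjusted p = 0.0377). Zdhhc2, a palmitoyltransferase that modifies tetraspanins, changed by -2.98 (SE 0.52, adjusted p = 0.0287), and by -2.34 without primary 2. Itgb4, the beta subunit of the hemidesmosome integrin that binds Cd151, changed by -1.62 (SE 0.36, adjusted p = 0.0498). For each of these 5 genes the call was lost without every library other than primary 1 (adjusted p up to 0.199) and with limma-voom with group weights (up to 0.346). Of the 5 laminin-binding integrin genes only Itgb4 was called, and none of the 5 genes of the ADAM10 list or the 5 B cell genes was called.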

How the data were processed

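Bulk RNA was sequenced from 9 mouse libraries, 3 per tissue label, and numbers within a group only name libraries. Part of the genotype is not reported here. The deposited files hold raw whole-number counts per Ensembl gene. Per the submitters' processing notes the tools were DESeq2 1.14.1 under R 3.2.3, HTSeq 0.6.0 for gene counts, the aligners TopHat2 2.1.0 with Bowtie2 2.2.6.0, and FastQC 0.11.4, with the build GRCm38.p3. The sources used here do not state strand setting, annotation release or read filters, so genes with overlapping exons (11 of the 31, none of the 4 called) are uncertain. These are Cd9, Cd37, Cd81, Cd151, Tspan2, Tspan4, Tspan8, Tspan12, Tspan15, Tspan31 and Tspan32. Among them are Cd151, Cd81 and Cd9, which led per kb in the metastases. Symbols matched 46488 of 47069 identifiers. Positions and exonic lengths are from GENCODE M21 on GRCm38.

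Genes passing edgeR's filterByExpr (minimum count 10, minimum total 15; 18204 genes) were tested with edgeR 4.0.16 (TMM, robust quasi-likelihood F-test, 6 residual degrees of freedom, R 4.3.3) on all 9 libraries. P-values were adjusted by Benjamini-Hochberg over all tested genes, with a threshold of 0.05. SE is the absolute log2 fold change over the square root of F. The procedure was tested on simulated data with independent libraries and 1 dispersion per gene for all groups. The wider spread of the primary libraries was not simulated, so that test cannot show whether p-values against primary are too small. Alternatives were median-ratio size factors, DESeq2 1.42.0, limma 3.58.1 voom with group weights, no filter, the compared groups alone, and leaving out each library. The 6 metastases come from 3 mice, and p-values treat libraries as independent, which may be too small or too large. The lowest chi-square per gene between 2 libraries was 23.0 (sampling noise gives 1), so no library is a copy. Members and lists were chosen with earlier results of these data known. Per-library values are given for called members, for members with an unadjusted p below 0.05 and no overlap, and for the 5 with the highest mean CPM, and those of other members were added after their values were seen.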

Additional observations from a re-analysis of the deposited data

How the results depend on the processing

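The number of tetraspanins called for both sites against primary, 4, was 2 with limma-voom with group weights and 5 with DESeq2. The DESeq2 calls were 4 lower and 1 higher (Cd151). The number was between 2 and 11 when 1 library was left out: 11 without primary 1 and 2 without any other library. Tspan1 and Upk1a were called in all 9 such fits. The proximal count, 1, was 2 with median-ratio size factors, 2 with limma-voom, 2 with no filter, 4 with DESeq2, 0 with the compared groups only, and between 0 and 10 without 1 library (10 without primary 1, 2 without primary 2, 0 without any other). The distal count, 2, was 4 with DESeq2, 0 with the compared groups only, and between 0 and 10 without 1 library (10 without primary 1, 2 without primary 2, 0 without any other). The cause of these changes was not tested. Without primary 1, edgeR called 34.8% of all genes for both sites. For the other alternative fits the share of all genes called is not given here. These member counts therefore cannot be read as results about tetraspanins. Between distal and proximal the count was 0 in every setting. No fold change of a called tetraspanin changed sign in a comparison that called it, nor did that of the 7 called companions for both sites against primary, the 1 comparison in which alternatives were run for them. The sign changes were in values that were not called. The log2 fold change of Cd81 in proximal, -0.01, was 0.041 with no filter and -0.052 to 0.095 without 1 library, and for both sites it was -0.007 to 0.14 without 1 library. Cd63, Tspan3 and Upk3a changed sign without primary 2 (Tspan3 in distal also without distal 1): Cd63 ranged over -0.72 to 0.070 (proximal), -0.68 to 0.11 (distal) and -0.70 to 0.090 (both), Tspan3 over -0.060 to 0.27, -0.13 to 0.19 and -0.096 to 0.23, and Upk3a over -0.066 to 1.12 for both sites. Between the metastatic sites Cd9, Cd63, Cd151 and Tspan3 changed sign without single metastases: -0.075 to 0.098, -0.052 to 0.14, -0.065 to 0.024 and -0.14 to 0.001. No paired analysis was possible because the labels do not say which libraries share a mouse. Depth limits Upk1a, whose distal values rest on 4 to 9 counts per library, Tspan10 and Prph2.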
